A study of Moricandia arvensis and Moricandia suffruticosa and Moricandia moricandioides with 78 samples.

Results

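The genes described here are the 9 Arabidopsis loci that encode glutamine synthetase (GS) and glutamate synthase (GOGAT), followed across leaf libraries of 3 Moricandia species. The set was fixed by gene identity and not by any measured value, and it makes up 9 of the 33602 features in each library. It holds the 5 cytosolic GS1 genes GLN1.1 (AT5G37600, also written with a semicolon in place of the point), GLN1.2 (AT1G66200), GLN1.3 (AT3G17820), GLN1.4 (AT5G16570) and GLN1.5 (AT1G48470), the plastidic GS2 (AT5G35630), the ferredoxin-dependent GOGAT genes GLU1 (AT5G04140) and GLU2 (AT2G41220), and the NADH-dependent GOGAT gene GLT1 (AT5G53460). None was at 0 in any library. The filter on low counts removed GLN1.5 from several Msu comparisons, namely drought at T2 and rewatering after it as labelled and rewatered plants against T0 or T1 controls, and the other 8 passed it in every comparison given below.

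RNA was sequenced from fully expanded leaves of the C3 species M. moricandioides (Mmo), the C2 (C3–C4 intermediate) species M. arvensis (Mav) and the C2 species M. suffruticosa (Msu), which is a tetraploid. Each species was represented by plants of a single seed line. Well-watered controls were sampled at T0 (100% of stomatal conductance), T1, T2 and RW. Plants from which water was withheld were sampled at T1, when stomatal conductance had dropped to 50%, at T2, when it had dropped to 10%, and at RW, after the pots had been rewatered to their starting weight, where the labels give the conductance as 100%. All groups shared the same growth room, soil mix and fertiliser, and no mutant, transgene or chemical treatment was involved. The 78 libraries comprised 29 of Mav, 25 of Msu and 24 of Mmo, with 47 from controls and 31 from droughted or rewatered plants in 21 groups of 1 to 5 libraries. Mav at T1 had 1 droughted library, so that point is given as a value with no test.

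In leaves, GS condenses ammonium with glutamate to form glutamine, and GOGAT transfers the amide group to 2-oxoglutarate to return glutamate, so that together the enzymes form the entry point of inorganic nitrogen into amino acids. The largest flow of ammonium in an illuminated C3 leaf comes from the glycine decarboxylase reaction of photorespiration in mitochondria, and in Arabidopsis it is recaptured mainly by GS2 and by GLU1, the major leaf ferredoxin-GOGAT. Cytosolic GS1 isoforms serve primary assimilation in roots and nitrogen export from ageing leaves, and in Arabidopsis GLN1.1 and GLN1.2 are the isoforms best known from leaf vascular tissue. In C2 species glycine decarboxylase is concentrated in the bundle sheath, so that photorespiratory ammonium is released there.

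The deposited reads totalled 22346621 to 41675513 per library, and several features of the libraries touch the results below. Of the 116 pairs of libraries within a group, 20 were near-identical, differing by little more than counting noise in the median gene. The median over genes of the squared difference was 1.61 to 3.92 times that of such noise, against 6.49 or more in all other pairs. The 78 libraries were therefore grouped into 61 profiles. For most results a value with these near-identical libraries counted once is given. As a check of species labels, 26 genes present at 2 CPM or more in all Mmo T0 libraries and at 0.2 CPM or less in all T0 libraries of the other species were counted in every library. The Mmo libraries held 16 to 26 of them, Mav and 18 of the Msu libraries 0 or 1, and the remaining 7 libraries labelled Msu held 16 to 19. These 7 libraries are the controls S33c and S36c and the droughted plants S5s and S8s at T2, and all 3 RW controls (S5c, S6c, S7c). Of 85 genes chosen in the same way for Msu over Mmo, these 7 held 13 to 26, the other Msu libraries 44 to 85 and the Mmo libraries 0 to 10. An exchange of samples and a mixture of RNA cannot be told apart here. In addition 4 pairs between S33c or S36c and S5s or S8s were near-identical although they carry opposite treatment labels. Results that use these libraries are also given without them, except the comparison of rewatered Msu with its RW controls, where no control would remain and other control groups were used instead. Of 5 drought-responsive marker genes, the summed level rose from 607–1261 CPM in the Mav T2 controls to 9038–12826 CPM in droughted Mav, and from 356–1022 to 4553–5099 CPM in Mmo. Among the root markers, COBL9 was at 0 in 77 of the 78 libraries, EXPA7 in 49 and PYK10 in 1. Their highest levels were 0.0866, 3.60 and 8.93 CPM. EXPA7 was called as higher in droughted Mav at T2 (log2 fold change 6.23 ± 0.70, adjusted p = 5.4e-05, edgeR).

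**Figure D1:**
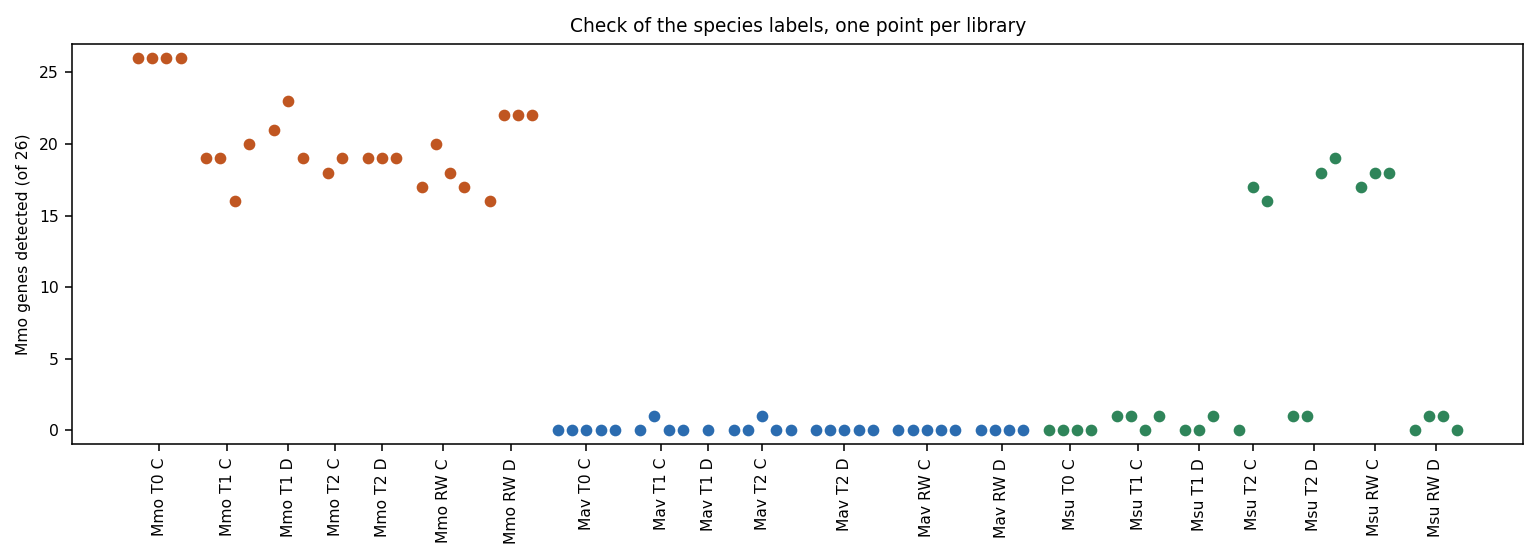
Number of the 26 Mmo genes (y axis) detected in each library (points), by group (x axis; C, control; D, droughted or rewatered). The genes were chosen on the T0 libraries, and 7 libraries labelled Msu at T2 and RW stand with Mmo at 16 to 19 genes, while the other Msu and all Mav libraries are at 0 or 1.

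Levels are given as CPM, read counts divided by a library size that was scaled by TMM, which compare 1 gene between libraries. Deposited TPM values, transcript levels scaled to a fixed sum per library, come from the authors' pipeline. Over the 78 libraries TPM per CPM had a median between 0.816 and 0.881 for the GS1 genes and 1.01 for GS2. It was between 2.03 and 2.48 for the GOGAT genes, whose coding sequences are the longer ones. A division by coding length would give the lower ratio to the longer genes, so deposited TPM did not behave as a per-length value. The reason was not tested. Levels were therefore compared among GS1 genes and not between GS and GOGAT genes. Reads of the GS1 paralogs, which are alike in sequence, could have been divided among them by the mapping in protein space, so an individual GS1 value is less certain than that of GS2, GLU1, GLU2 or GLT1. In whole leaves, fewer cells of a type and less RNA per cell cannot be told apart. The paper kept its quantitative comparison of species to the diploids Mmo and Mav, since ploidy affects quantification and its pipeline did not address it. Fold changes between Msu and the other species given below carry that limit. All reads were mapped to Arabidopsis sequences, and the part of unequal mapping in species differences was not tested.

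The members covered very different ranges. GS2 ran from 411 to 3645 CPM with a median of 1740.2 over all libraries, and GLU1 from 187 to 2384 with a median of 1189. Among the cytosolic genes GLN1.2 led with a median of 440.3 CPM (44.2 to 1394), followed by GLN1.1 with 108 (20.0 to 651), GLN1.4 with 60.7 (6.34 to 1563) and GLN1.3 with 60.6 (22.4 to 232). The widest range was that of GLN1.4, and the ranges of GLN1.1, GLN1.3 and GLN1.4 overlapped throughout. GLN1.5, a gene known mainly from Arabidopsis seeds, had a median of 0.501 CPM and 2 to 510 reads per library. GLT1 had a median of 207 CPM (44.7 to 538) and GLU2, the minor ferredoxin-GOGAT, one of 41.4 CPM (7.92 to 80.7).

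**Figure D2:**
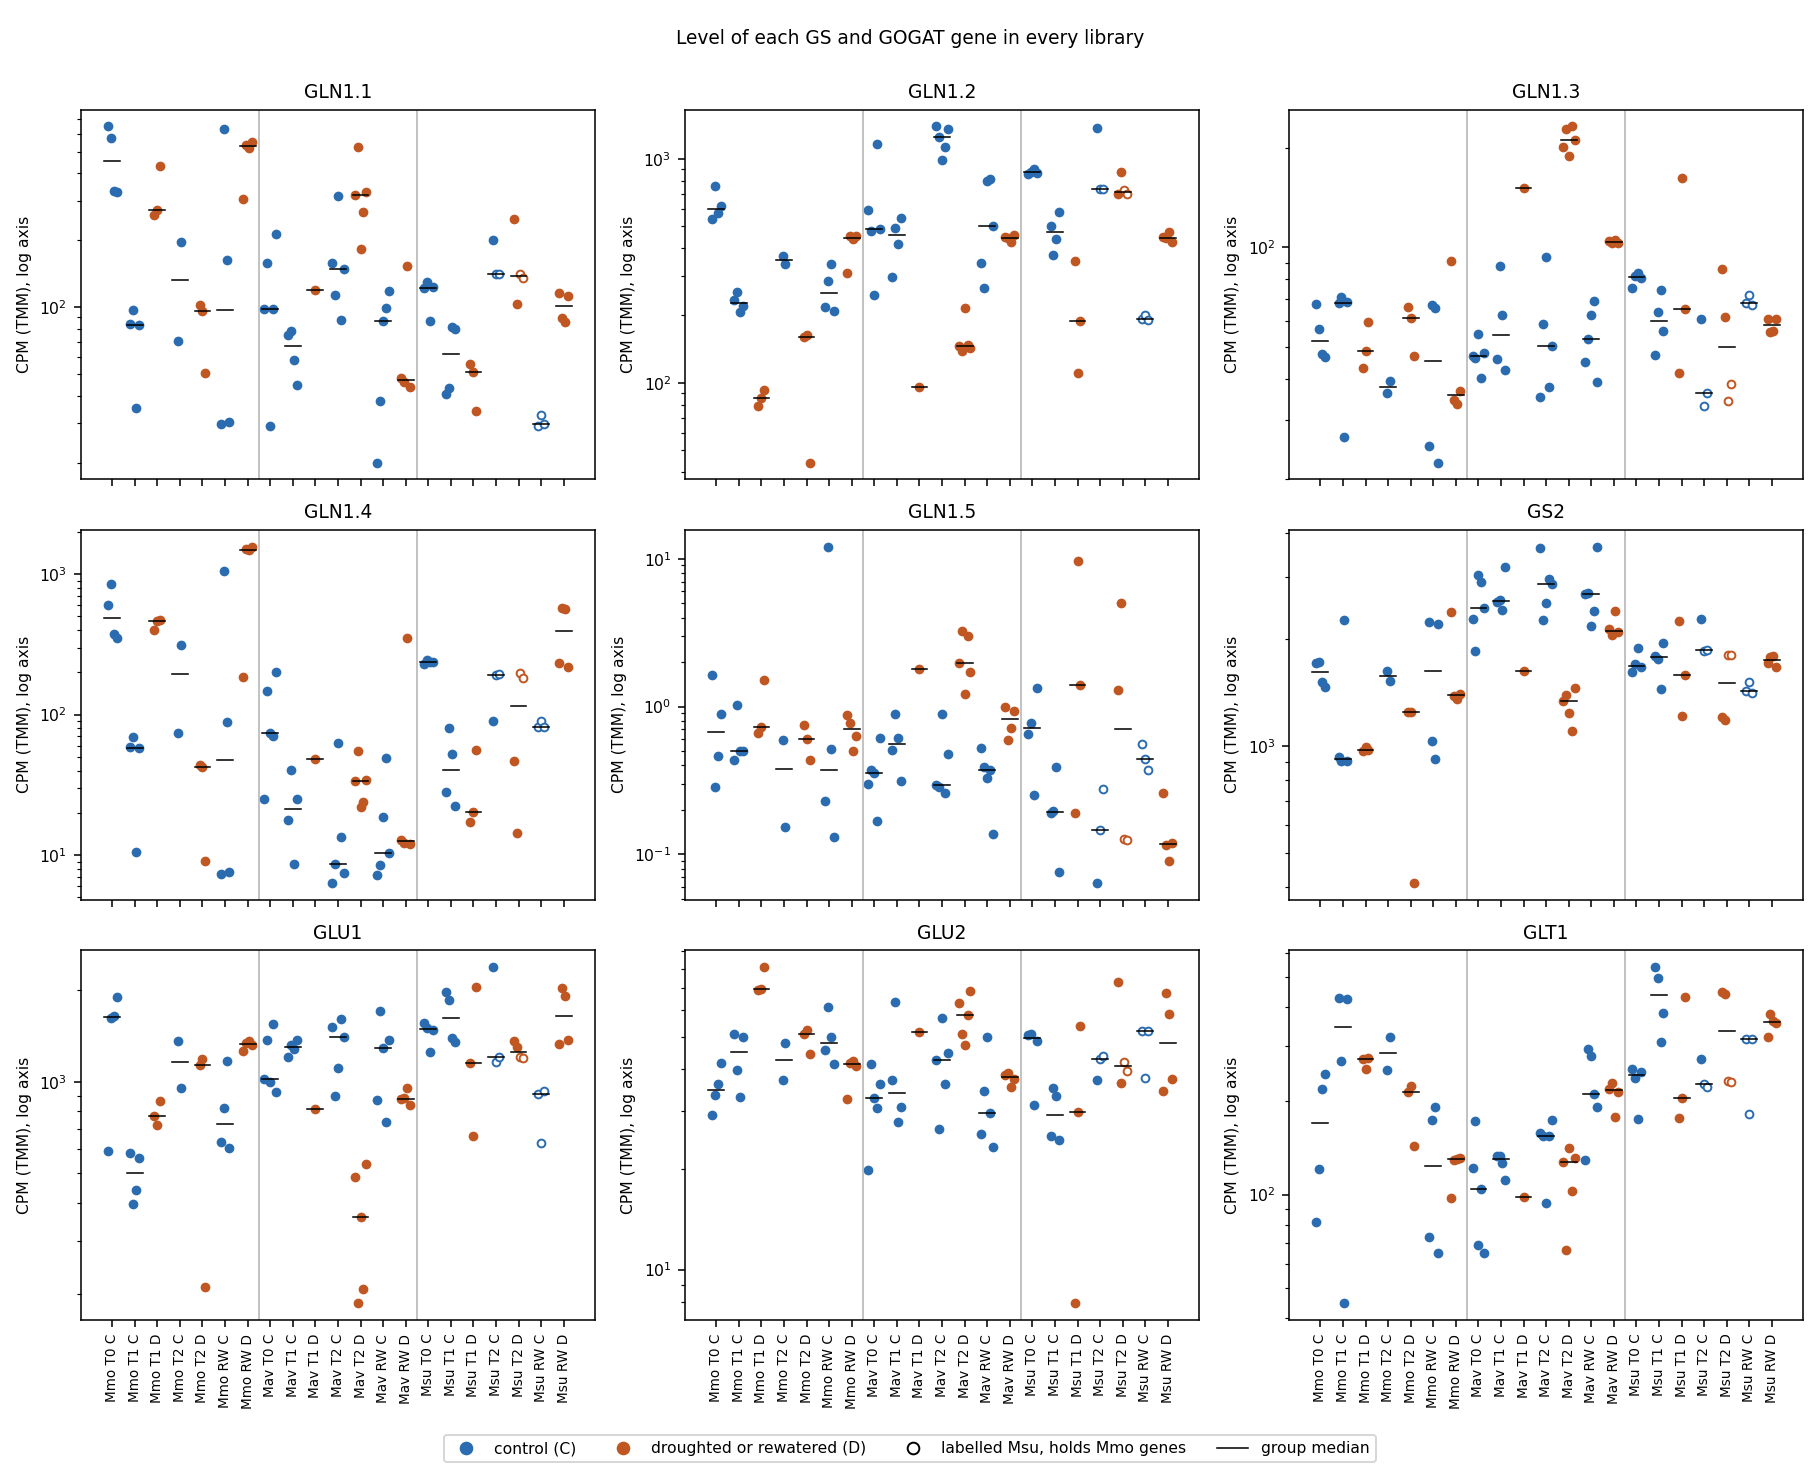
CPM of each gene on a log axis (y) in every library (points) of the 21 groups (x axis), with the group median as a line, controls in blue, droughted or rewatered plants in orange and the 7 libraries labelled Msu that hold Mmo genes as open symbols. GLN1.2 sits between 139 and 217 CPM in droughted Mav at T2 against 984 to 1394 in its controls, and GLN1.4 spans 6.34 to 1563 CPM over all libraries.

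The first question was how the species differ in unstressed leaves. The paper found it unclear at the physiological level whether the photorespiratory shuttle was operating. GLN1.1 and GLN1.4 were higher in Mmo than in either C2 species at T0. GLN1.1 stood at 578, 333, 332 and 651 CPM in the 4 Mmo controls, at 98.5, 158, 29.3, 98.5 and 214 CPM in the 5 Mav controls, and at 122, 129, 86.4 and 123 CPM in the 4 Msu controls. Every Mmo value lay above every value of the other species. The difference was 4.02-fold over Mav (log2 fold change 2.01 ± 0.47 SE, adjusted p = 0.0054, edgeR) and 4.12-fold over Msu (2.04 ± 0.27, adjusted p = 0.0003), and it was called with near-identical libraries counted once (adjusted p = 0.0081 and 0.013). GLN1.4 stood at 856, 375, 354 and 598 CPM in Mmo, at 24.9, 148, 74.6, 70.2 and 201 in Mav, and at 229.9, 244, 238 and 237 in Msu. The groups did not overlap, and GLN1.4 was 5.34-fold higher in Mmo than in Mav (2.42 ± 0.52, adjusted p = 0.0036) and 2.31-fold higher than in Msu (1.21 ± 0.27, adjusted p = 0.0058). With near-identical libraries counted once, the former was called (adjusted p = 0.0056) and the latter was not (adjusted p = 0.065).

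GS2 went the other way between Mmo and Mav at T0. It stood at 1725, 1516, 1464 and 1717 CPM in Mmo and at 2275, 1855, 3043, 2902 and 2456 CPM in Mav, with no overlap, and was 1.54-fold lower in Mmo (log2 fold change −0.63 ± 0.19, adjusted p = 0.023 and 0.075 with near-identical libraries counted once). In this comparison 3 of the 9 members were called, beside 43.9% of all genes. Between Mmo and Msu 4 members were called, beside 46.5% of all genes: besides GLN1.1 and GLN1.4, GLN1.2 was 1.402-fold lower (−0.49 ± 0.15, adjusted p = 0.022) and GLN1.3 was 1.47-fold lower in Mmo (−0.55 ± 0.15, adjusted p = 0.015), and neither was called with near-identical libraries counted once (adjusted p = 0.30 and 0.26). Between Mav and Msu 2 members were called, beside 24.1% of all genes: GLN1.3 was 1.70-fold lower (−0.77 ± 0.12, adjusted p = 0.0024) and GLT1 was 2.15-fold lower in Mav (−1.10 ± 0.28, adjusted p = 0.019), and with near-identical libraries counted once their adjusted p was 0.052 and 0.18. GLU1 and GLU2 were called between no pair of species at T0 with all libraries. When each library was left out in turn, GLN1.1 and GLN1.4 were called every time in both contrasts of Mmo, and GLN1.3 every time between Mav and Msu. GS2 between Mmo and Mav was lost without M3s or M4s (adjusted p up to 0.074), GLN1.2 between Mmo and Msu without any 1 of 5 libraries (up to 0.074), GLN1.3 between Mmo and Msu without M3s or M4s (up to 0.054), and GLT1 between Mav and Msu without any 1 of 3 (up to 0.058). Between Mav and Msu other members were called without 1 library: GS2 without A4 (0.63), GLN1.2 without A46 (−0.96), GLN1.4 without A48 (−1.58), and GLU2 and GLN1.5 without S42 (−0.64 and −1.35). Without S42 GLU2 was also called as lower in Mmo than in Msu (−0.51, adjusted p = 0.019). The Mmo T0 control M12c, which carried the cysteine protease marker of ageing leaves SAG12 at 3979 CPM against 12.9 to 67.9 in the other 3, had the lowest GLU1 (593 against 1618 to 1894 CPM) and GLT1 (81.5 against 121 to 243 CPM) of its group. Its part in these contrasts was not tested beyond leaving it out.

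At T1 the controls gave a different order. GLU1 stood at 395, 441, 563 and 583 CPM in Mmo, below the 1210.1 to 1375 CPM of Mav and the 1356 to 1975 CPM of Msu. It was 2.60-fold lower in Mmo than in Mav (log2 fold change −1.38 ± 0.21, adjusted p = 0.0016) and 3.29-fold lower than in Msu (−1.72 ± 0.24, adjusted p = 0.00061), and was called with near-identical libraries counted once (adjusted p = 0.0065 and 0.0028). GLN1.2 stood at 208 to 254 CPM in Mmo against 296 to 544 in Mav and 372 to 581 in Msu, and was 1.90-fold lower than in Mav (adjusted p = 0.012) and 2.05-fold lower than in Msu (adjusted p = 0.0024), with 0.040 and 0.012 when near-identical libraries were counted once. GS2 was at 904, 908 and 934 CPM in 3 Mmo libraries and at 2261 CPM in M6c, and was called against Mav (−1.09 ± 0.37, adjusted p = 0.046). That GS2 call was lost without any 1 of the 7 libraries other than M6c (adjusted p up to 0.13), while without M6c it was −1.55 with an adjusted p of 0.00048, and GLN1.4 (1.43) and GLT1 (1.57) were then called as higher in Mmo. Without M6c GS2 was also called as lower in Mmo than in Msu (−0.89, adjusted p = 0.0020). In all 3 members were called between Mmo and Mav beside 35.3% of all genes, 4 between Mmo and Msu beside 41.3%, and 2 between Mav and Msu beside 25.4%. Between Mmo and Msu the others were GLN1.5 and GLU2, both with an adjusted p of 0.048 and lost on leaving out single libraries (up to 0.15). The contrast of Mav and Msu gave GS2 (adjusted p = 0.039, up to 0.096) and GLT1, which was at 111 to 133 CPM in Mav and 309 to 538 CPM in Msu and was 3.39-fold lower in Mav (−1.76 ± 0.21, adjusted p = 0.00088). GLT1, the NADH-dependent enzyme linked to non-photorespiratory ammonium, was thus lower in Mav than in Msu at T0 and T1, both with no overlap of the groups.

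Among the T2 controls 4 members were called between Mmo and Mav, beside 21.6% of all genes, with 2 Mmo libraries. GLN1.2 was at 367 and 341 CPM in Mmo against 984 to 1394 in Mav (3.42-fold lower, adjusted p = 0.0035), and GS2 at 1627 and 1522 against 2267 to 3622 (1.79-fold lower, adjusted p = 0.045). GLT1 was 1.97-fold higher in Mmo (adjusted p = 0.027), and GLN1.4 at 74.5 and 313 CPM in Mmo lay above the 6.34 to 63 CPM of Mav (adjusted p = 0.037). Of the 4, GLN1.2 was called whichever library was left out, and the others were lost without M14c or M16c (adjusted p up to 0.33) and without some single Mav libraries. These were A9c, A15c, A16c or A24c for GLN1.4 (up to 0.077), A9c, A15c or A24c for GS2 (up to 0.089) and A24c for GLT1 (0.053). Without A22c the GLN1.4 difference was 4.44 on the log2 scale, against 3.30 with it. Among the RW controls no member was called by edgeR between Mmo and Mav, beside 31.4% of all genes. At an unadjusted p under 0.05 there were 4, beside 8630 of 19777 genes, and DESeq2 called 1 member. The share of all genes called by DESeq2 is not given here or below, so its counts of members cannot be set against it. Leaving out 1 library brought in GLN1.4 (A6c, M21c or M24c), GLN1.5 (M24c), GLN1.2 (A13c) or GLU2 (A17c), with log2 fold changes of 4.38 to 4.74, 3.64, −1.22 and 0.81.

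The controls were then compared with T0 within each species to see how far the genes move without drought. Mmo controls fell strongly from T0 to T1. GLN1.1 dropped from 332–651 to 35.2, 83.1, 83.6 and 97.3 CPM, which is 6.41-fold (log2 fold change −2.68 ± 0.38, adjusted p = 0.0026), and GLN1.4 from 354–856 to 10.6, 58.2, 58.4 and 69.3 CPM, which is 11.3-fold (−3.50 ± 0.57, adjusted p = 0.0049). GLN1.2 was 2.73-fold lower (adjusted p = 0.0018) and GLU1 2.93-fold lower at T1 (adjusted p = 0.019). These 4 members were called beside 15.4% of all genes, and GLN1.1, GLN1.2 and GLN1.4 were called with near-identical libraries counted once. At T2 no Mmo member was called by edgeR beside 2.17% of all genes. At an unadjusted p under 0.05 there were 3, beside 3547 of 20193 genes, and DESeq2 called 2 members. At RW 1 was called beside 1.24%, which was GLN1.2 (−1.25 ± 0.22, adjusted p = 0.041, and up to 0.15 on leaving out single libraries). Without the RW control M22c, which was at 1045 CPM in GLN1.4, GLN1.1 (−2.68, adjusted p = 0.038) and GLN1.4 (−4.01, adjusted p = 0.037) were called as lower at RW as well. The GLU1 call at T1 was lost without M3s, M4s or M5c (adjusted p up to 0.066), and without M6c GS2 was called as lower at T1 (−0.83, adjusted p = 0.0039).

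In Mav no control contrast with T0 gave a call by edgeR, at T1 beside 0% of all genes, at T2 beside 7.00% and at RW beside 3.62%. The members at an unadjusted p under 0.05 numbered 1, 2 and 2, beside 2625 of 20000, 4540 of 19821 and 4712 of 19512 genes. DESeq2 called 1, 2 and 2 members. GLN1.2 was called as higher at T2 without A46 (1.43, adjusted p = 0.012), and GLN1.4 as lower at T2 without A22c (−3.54, adjusted p = 0.0049) and at RW without A6c (−3.19, adjusted p = 0.0056). In Msu the T1 controls differed from T0 in 3 members beside 12.9% of all genes: GLN1.4 fell from 229.9–244 to 22.3–80.9 CPM (−2.36 ± 0.37, adjusted p = 0.0044), GLN1.2 fell 1.83-fold (adjusted p = 0.010) and GLT1 rose 1.91-fold (adjusted p = 0.020). None of the 3 was called with near-identical libraries counted once, and GLT1 was lost without S38, S39 or S43 (adjusted p up to 0.066). Without S42 GLN1.1 (−1.04), GLN1.5 (−2.06) and GLU2 (−0.77) were called as lower at T1, and GLN1.1 also without S26c or S35c (−1.06 in both). GLN1.4 thus fell between T0 and T1 in controls of Mmo and Msu, and the choice of control group decides the direction of some drought contrasts below.

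The response to severe drought was best covered in Mav, with 5 droughted and 5 control libraries at T2. The cytosolic gene that leads in control leaves, GLN1.2, fell, and other GS1 genes rose. GLN1.2 stood at 1355, 1394, 1130.4, 1251 and 984 CPM in controls and at 146, 139, 148, 217 and 143 CPM in droughted plants. The groups were far apart, and GLN1.2 was 7.75-fold lower under drought (log2 fold change −2.95 ± 0.19, adjusted p = 2.6e-06). GLN1.3 stood at 50.5, 35.3, 37.8, 58.8 and 93.7 CPM in controls and at 201, 228, 232, 188 and 211 CPM in droughted plants. It was 3.83-fold higher with no overlap (1.94 ± 0.26, adjusted p = 0.00015). GLN1.1 stood at 149, 158, 87.5, 113 and 315 CPM in controls and at 320.0, 523, 268, 182 and 331 CPM under drought. The ranges overlapped through the control A22c, and the rise of 1.98-fold was close to the threshold (0.98 ± 0.36, adjusted p = 0.047, and 0.072 with near-identical libraries counted once). It was lost on leaving out any 1 of 8 of the 10 libraries (adjusted p up to 0.10). GLN1.5 rose from 0.262–0.888 to 1.22–3.23 CPM (2.31 ± 0.46, adjusted p = 0.0021), and stayed the lowest GS1 gene. GLN1.4 was at 6.34 to 63 CPM in controls and 22.1 to 54.9 CPM in droughted plants and was not called. Without A22c, the highest control in GLN1.1, GLN1.3, GLN1.4 and GLN1.5, it was called as higher (1.91, adjusted p = 0.0011), as was GLU2 (0.61, adjusted p = 0.023).

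The chloroplast pair of photorespiratory ammonium recapture fell in the same leaves. GS2 stood at 2859, 3622, 2964, 2267 and 2525 CPM in controls and at 1340.5, 1395, 1100.1, 1242 and 1459 CPM under drought, with no overlap and a 2.18-fold drop (log2 fold change −1.12 ± 0.18, adjusted p = 0.00044). GLU1 stood at 1407, 1519, 1609, 896 and 1107 CPM in controls and at 487, 187, 207, 359 and 536 CPM under drought. It dropped 3.69-fold (−1.88 ± 0.31, adjusted p = 0.00067), with A35s and A39s lowest. GLU2 at 26.5–56.7 against 47.1–68.5 CPM and GLT1 at 93.7–173 against 66.2–141 CPM were not called. Of the 9 members 6 were called, 3 higher and 3 lower, beside 42% of all genes, and all but GLN1.1 were called with near-identical libraries counted once. With T0 or T1 controls as reference GLN1.2, GS2 and GLU1 were again lower and GLN1.1, GLN1.3 and GLN1.5 higher, all called beside 47.2% and 41.1% of all genes, also with near-identical libraries counted once, while GLN1.4 was 1.60 lower on the log2 scale against T0 controls (log2 fold change −1.60 ± 0.47, adjusted p = 0.015).

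Other marker lists moved in these leaves. The summed level of 4 mesophyll marker genes was 18816–35614 CPM in Mav T2 controls and 7504–11445 CPM in droughted plants, with 4 of 4 markers lower, and that of 5 genes of senescing leaves was 74.8–136 against 611–1031 CPM, with 4 of 5 higher. The sum of 4 phloem companion cell markers was 321–666 against 392–681 CPM. The part of these shifts in the values of the members was not tested. The values of the single Mav library at 50% conductance, A34s, are set here beside those of its 4 T1 controls. GLN1.2 was at 96.3 CPM against 296 to 544 CPM in controls, GLN1.3 at 151 against 42.6 to 87.8, GLN1.1 at 119 against 44.5 to 78.3, GS2 at 1631 against 2413 to 3195, and GLU1 at 814 against 1210.1 to 1375. A34s thus lay on the side of the controls on which the T2 plants lay for each of these genes, as a value with no test.

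In Mmo the drought contrast at T1 called 5 members beside 31.7% of all genes. GLN1.1 stood at 97.3, 35.2, 83.1 and 83.6 CPM in controls and at 273, 433 and 261 CPM at 50% conductance (4.27-fold higher, log2 fold change 2.09 ± 0.35, adjusted p = 0.0046). GLN1.4 stood at 69.3, 10.6, 58.2 and 58.4 CPM in controls and at 461, 469 and 400.4 CPM under drought (8.95-fold higher, 3.16 ± 0.55, adjusted p = 0.0052). GLN1.2 stood at 254, 208, 222 and 233 CPM in controls and at 85.3, 92.8 and 78.9 CPM under drought (2.71-fold lower, −1.44 ± 0.13, adjusted p = 0.00042). None of these groups overlapped. Among the GOGAT genes GLU1 was 1.56-fold higher (0.64 ± 0.19, adjusted p = 0.036) and GLU2 1.66-fold higher (0.73 ± 0.17, adjusted p = 0.017). With near-identical libraries counted once only GLN1.2 was called (adjusted p = 0.029), against adjusted p = 0.051 for GLN1.1 and 0.060 for GLN1.4. GLU1 and GLU2 were lost on leaving out single libraries (adjusted p up to 0.12 and 0.069), and without M6c GLN1.3 (−0.48, adjusted p = 0.0079) and GLT1 (−0.51, adjusted p = 0.030) were called as lower.

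The reference decided part of the Mmo result at T1. Against T0 controls GLN1.2 was lower still (−2.89 ± 0.18, adjusted p = 0.00018), but GLN1.1, GLN1.4 and GLU1 turned to log2 fold changes of −0.58, −0.33 and −0.91, none of them called. GS2 was called lower (−0.75 ± 0.13, adjusted p = 0.0058) and GLU2 higher (1.03 ± 0.15, adjusted p = 0.0031) against T0, where 24.2% of all genes were called. With near-identical libraries counted once GLN1.2 was called there (adjusted p = 0.017) and GS2 and GLU2 were not (0.10 and 0.051). With all libraries GLN1.2 and GLU2 were therefore the members called in the same direction against both control groups. The droughted Mmo leaves had 807–1444 CPM of the summed drought markers, against 286–663 in T1 controls and 153–243 in T0 controls, and 156–311 CPM of the senescing leaf markers against 32.9–130 in T1 controls. Summed markers of other cell types moved without overlap in the T1 comparison as well. The phloem companion cell sum was 580–725 CPM against 151–478 in T1 controls, and the mesophyll sum 13455–14294 against 16205–38448 CPM. The epidermis sum was 29.5–42.5 against 88.8–100.5 CPM and the root sum 0.162–0.314 against 5.07–7.00 CPM. Single markers moved less evenly. No mesophyll marker was called, and RCA went the other way (0.20). Of the phloem markers SUC2 alone was called, as higher (1.07). ATML1 and FDH of the epidermis were called as lower (−1.41 and −1.38), as was the root marker PYK10 (−4.78). The part of these shifts in the values of the members was not tested.

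At T2 no Mmo member was called by edgeR beside 4.60% of all genes, with 3 droughted and 2 control libraries. At an unadjusted p under 0.05 there were 3, beside 4827 of 20497 genes, and DESeq2 called 2 members. GLN1.2 stood at 367 and 341 CPM in controls and at 160.5, 164 and 44.2 CPM under drought, and GS2 at 1627 and 1522 against 1247, 1243 and 411 CPM. The droughted library M20s was the lowest in GLN1.2, GS2 and GLU1, the last at 211 against 1135 and 1185 CPM. Without M20s, GLN1.2 was called as lower (−1.14 ± 0.11, adjusted p = 0.0099) and GLN1.3 as higher (0.74 ± 0.11, adjusted p = 0.020). The share of all genes called without M20s is not given. GLN1.3 stood at 36.2 and 39.4 CPM in controls and at 66.1, 61 and 47 CPM under drought. Against T0 controls 3 members were called as lower beside 15.5% of all genes: GLN1.1 (5.72-fold, log2 fold change −2.52 ± 0.39, adjusted p = 0.0064), GLN1.2 (5.05-fold, −2.34 ± 0.46, adjusted p = 0.014) and GLN1.4 (17.2-fold, −4.10 ± 0.65, adjusted p = 0.0067). With near-identical libraries counted once none of them was (adjusted p = 0.059, 0.096 and 0.056), and against T1 controls none was called by edgeR, with 0 at an unadjusted p under 0.05.

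Between T1 and T2 the droughted Mmo plants lost the high GLN1.1 and GLN1.4. GLN1.1 went from 261–433 to 102, 95.7 and 50.6 CPM (3.91-fold lower, adjusted p = 0.012) and GLN1.4 from 400.4–469 to 43.5, 42.5 and 9.09 CPM (14-fold lower, adjusted p = 0.0083). GLU2 was 1.49-fold lower (adjusted p = 0.024). These 3 were called beside 21.1% of all genes, and none with near-identical libraries counted once. GLU2 was lost without any 1 of the 5 libraries other than M20s (adjusted p up to 0.081). Without M20s GLN1.2 (0.92), GLU1 (0.56) and GS2 (0.35) were also called as higher at T2 and GLT1 (−0.29) as lower. The droughted T2 libraries then left, M17s and M19s, were near-identical, and the share of all genes called there is not given.

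In Msu no member was called by edgeR at T1 beside 0.168% of all genes. At an unadjusted p under 0.05 there were 2, beside 3190 of 19657 genes, and DESeq2 called 1 member. GLN1.2 stood at 500.1, 372, 439 and 581 CPM in controls and at 352, 111 and 189 CPM under drought, with all droughted plants below all controls. The 3 droughted libraries differed widely among themselves, with GLN1.5 at 0.191, 9.59 and 1.39 CPM and GLU1 at 1155, 664 and 2056 CPM. Without S10s GLN1.2 (−1.64, adjusted p = 0.047) and GLN1.5 (4.65, adjusted p = 0.034) were called. Against T0 controls GLN1.1, GLN1.2 and GLN1.4 were called lower (−1.24, −1.95 and −2.88) beside 17.9% of all genes, and none with near-identical libraries counted once (adjusted p = 0.19, 0.13 and 0.058).

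At T2 the Msu libraries as labelled gave no call by edgeR or DESeq2 beside 0% of all genes, and no member at an unadjusted p under 0.05, but 2 of 3 controls and 2 of 4 droughted libraries were among those with Mmo genes. The droughted plants S2s and S4s, which do not hold them, carried 4179 to 5842 CPM of summed drought markers, and were compared with the T0 and T1 controls. Against T0 controls 3 members were called beside 32.1% of all genes: GLN1.4 at 46.8 and 14.4 against 229.9–244 CPM (log2 fold change −2.93 ± 0.48, adjusted p = 0.0050), GS2 at 1204 and 1180.3 against 1622–1883 CPM (−0.51 ± 0.15, adjusted p = 0.044) and GLT1 at 447 and 441 against 175–254 CPM (0.98 ± 0.19, adjusted p = 0.0096). With near-identical T0 controls counted once GLN1.4 was called (adjusted p = 0.046) and GS2 and GLT1 were not (0.33 and 0.10). Against T1 controls 2 were called beside 19.6%: GLN1.1 at 250.0 and 104 against 40.8–81.3 CPM (1.56 ± 0.43, adjusted p = 0.043) and GLN1.5 at 1.29 and 5.01 against 0.0766–0.393 CPM (3.86 ± 0.73, adjusted p = 0.011). No member was called against both references. GLN1.2, at 698 and 869 CPM in S2s and S4s, was called against neither, with T0 controls at 855.2–897 and T1 controls at 372–581 CPM.

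**Figure D3:**
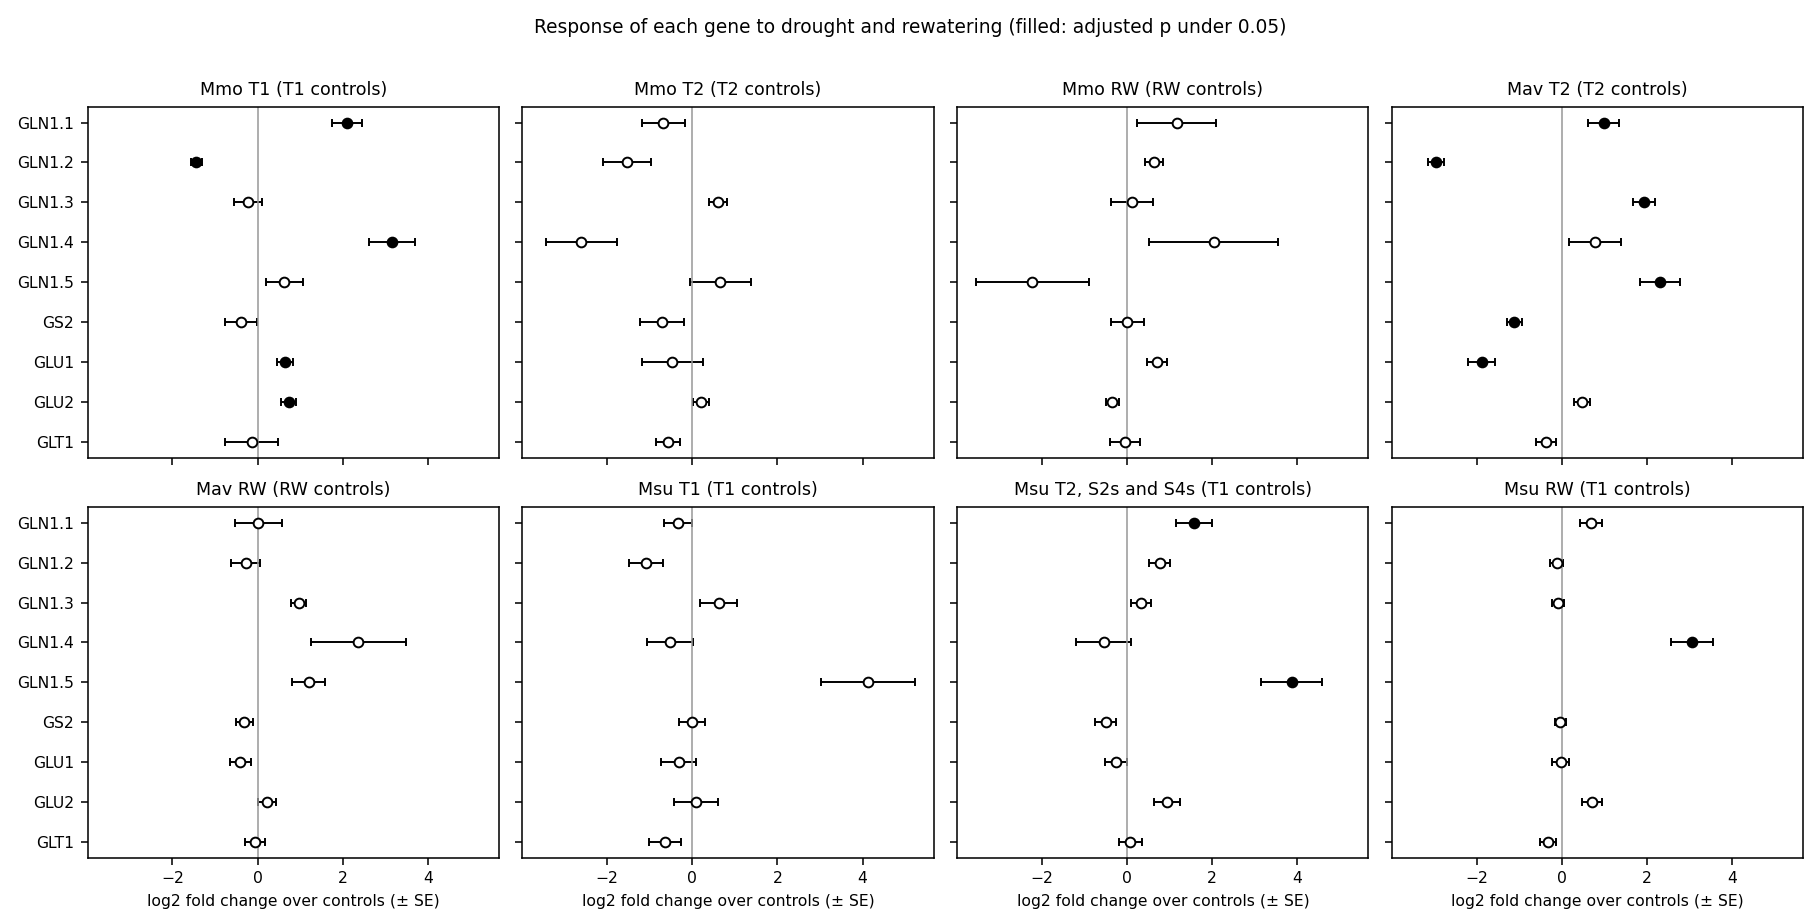
Log2 fold change (x axis, ± SE) of each gene (y axis) over the controls named in each panel, filled where the adjusted p was under 0.05. GLN1.2 lies at −2.95 in Mav at T2 and −1.44 in Mmo at T1. Msu at T2 uses S2s and S4s and at RW all 4 rewatered libraries, both against T1 controls.

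Whether the species differ in response was tested directly as an interaction. For T2 drought no member was called between Mmo and Mav by edgeR beside 5.35% of all genes. At an unadjusted p under 0.05 there were 4, beside 4815 of 22323 genes, and DESeq2 called 2 members. Without M20s the fall of GLN1.2 was called as smaller in Mmo than in Mav (difference in log2 fold change 1.81 ± 0.30, adjusted p = 0.0053). Without A22c the responses of GLN1.3 (−1.61) and GLN1.4 (−4.53) were called as lower in Mmo. At RW none was called either beside 2.06%. At an unadjusted p under 0.05 there were 3, beside 4535 of 21163 genes, and DESeq2 called 1 member. Without A6c or M23c the GLU1 response at RW was called as higher in Mmo (1.25 and 1.35). For T1 drought 2 were called between Mmo and Msu beside 6.34%. The response of GLN1.1 was 2.49 ± 0.51 higher in Mmo on the log2 scale (adjusted p = 0.013, and 0.049 with near-identical libraries counted once), and that of GLN1.4 was 3.74 ± 0.84 higher (adjusted p = 0.019, and 0.080). The GLN1.4 difference was lost without S13s (adjusted p = 0.055) and was 4.41 without S15s, and other members were called without S10s (GLN1.5, −4.00) and without S15s (GLU1, 1.47). Both main calls rest on T1 controls. For T2 drought between Mav and Msu 1 was called beside 3.79%, which was GLN1.2 (−2.61 ± 0.34, adjusted p = 0.0029, and 0.098 with near-identical libraries counted once). Without the libraries that hold Mmo genes the difference was −2.15 with an adjusted p of 0.053. Leaving out A22c or S2s brought in GLN1.3 (1.86 and 1.90), and leaving out S28c GLU1 (−1.99).

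Droughted leaves of Mmo and Mav at T2 were also compared side by side, and 4 members were called beside 41.2% of all genes. GLN1.1 at 102, 95.7 and 50.6 CPM in Mmo was 3.96-fold lower than the 182 to 523 CPM of Mav (log2 fold change −1.99 ± 0.39, adjusted p = 0.0032). GLN1.3 at 66.1, 61 and 47 CPM was 3.67-fold lower than the 188 to 232 CPM of Mav (−1.88 ± 0.19, adjusted p = 0.00015), and GLN1.5 was 3.72-fold lower (adjusted p = 0.012). GLT1 at 214, 223 and 143 CPM was 1.70-fold higher in Mmo than the 66.2 to 141 CPM of Mav (adjusted p = 0.040, and up to 0.14 on leaving out single libraries). Without M20s GLU1 was called as higher in Mmo (1.70, adjusted p = 0.012). GLN1.1 and GLN1.3 were called with near-identical libraries counted once (adjusted p = 0.024 and 0.0049). GLN1.1 was thus higher in Mmo than in Mav in T0 controls and lower in droughted T2 plants. The T0 difference was not called among later well-watered plants. Mmo controls spanned 35.2–97.3 CPM at T1, a range that held all Mav controls (44.5–78.3). The T2 control ranges overlapped, with Mmo spanning 70.1–196 CPM and Mav 87.5–315. The interaction test at T2, which asks whether the drought response differs between these species, did not call GLN1.1.

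After rewatering, Mav returned toward its controls. Compared with droughted T2 plants 8 members were called beside 48.5% of all genes, 4 higher and 4 lower. GLN1.2 rose from 139–217 to 447, 443, 426 and 459 CPM (2.82-fold, log2 fold change 1.49 ± 0.16, adjusted p = 3.1e-05), GLU1 from 187–536 to 879, 881, 953 and 840.3 CPM (2.51-fold, adjusted p = 0.0045) and GS2 from 1100.1–1459 to 2137, 2061, 2408 and 2092 CPM (1.67-fold, adjusted p = 0.0023). GLN1.3 fell from 188–232 to 105, 103, 105 and 103 CPM (2.03-fold, adjusted p = 7.4e-05), and GLN1.1 fell to 47.9, 46.3, 153 and 43.6 CPM (4.48-fold, adjusted p = 0.0028). GLT1 rose 1.86-fold (adjusted p = 0.0047), GLN1.5 fell 2.73-fold (adjusted p = 0.0091) and GLU2 fell 1.53-fold (adjusted p = 0.0043). With near-identical libraries counted once, which left 2 rewatered profiles, GLN1.2, GLN1.3 and GLU1 were called (adjusted p = 0.0079, 0.017 and 0.039). The exception was GLN1.4, at 12.8, 12.2, 351 and 11.9 CPM. One rewatered plant, A40s, carried the high value, and without it GLN1.4 was called as lower than at T2 (−1.45 ± 0.30, adjusted p = 0.0032) and the fall of GLN1.1 was larger (−2.82).

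Against the RW controls no Mav member was called by edgeR beside 0.275% of all genes. At an unadjusted p under 0.05 there were 2, beside 3602 of 19623 genes, and DESeq2 called 1 member. GLN1.3 came closest, at 103–105 CPM in rewatered plants against 68.9, 39.3, 45, 53 and 62.4 CPM in controls, with no overlap (log2 fold change 0.96 ± 0.18, adjusted p = 0.063). It was called against T0 controls (1.14 ± 0.12, adjusted p = 0.00067, beside 19.7% of all genes) and T1 controls (0.82 ± 0.22, adjusted p = 0.039, beside 14.8%). With near-identical libraries counted once these adjusted p were 0.039 and 0.27. In all 4 rewatered libraries GLN1.3 thus lay above every one of the 19 Mav controls, the highest of which was at 93.7 CPM. Against the RW controls it was called without the control A6c (1.08, adjusted p = 0.017) and without A40s (0.99, adjusted p = 0.029).

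In Mmo the step from drought at T2 to rewatering was marked by GLN1.4. It stood at 43.5, 42.5 and 9.09 CPM under drought and at 184, 1508, 1474 and 1563 CPM after rewatering (37.2-fold higher, log2 fold change 5.22 ± 0.97, adjusted p = 0.0081), with M26s, M27s and M28s, which share a profile, far above M25s. GLN1.1 rose from 50.6–102 to 307, 536, 522 and 556 CPM (5.79-fold, adjusted p = 0.0022) and GLN1.2 from 44.2–164 to 308, 451, 438 and 452 CPM (3.36-fold, adjusted p = 0.027). GLT1 fell from 143–223 to 97.5–131 CPM (1.58-fold, adjusted p = 0.043). These 4 were called beside 27.9% of all genes, and none with near-identical libraries counted once, which left 2 profiles in each group. GLN1.2 and GLT1 were lost on leaving out single libraries (adjusted p up to 0.067 and 0.15), and GLN1.3 was called as lower without M25s (−0.73, adjusted p = 0.0093) and GLU2 as lower without M20s (−0.39, adjusted p = 0.046). Against RW controls no member was called by edgeR beside 0.252%. At an unadjusted p under 0.05 there were 2, beside 3831 of 19445 genes, and DESeq2 called 1 member. Those controls themselves ranged from 7.29 to 1045 CPM in GLN1.4 and from 29.8 to 633 CPM in GLN1.1, with M22c highest in both. Without M23c GLU1 was called as higher after rewatering (0.92, adjusted p = 0.048). Against T1 controls 4 members were called as higher beside 20.2% of all genes: GLN1.4 (24.3-fold, log2 fold change 4.60 ± 0.82, adjusted p = 0.0072), GLN1.1 (6.47-fold, adjusted p = 0.0018), GLU1 (2.69-fold, adjusted p = 0.0020) and GLN1.2 (1.81-fold, adjusted p = 0.0097). None was called there with near-identical libraries counted once (adjusted p = 0.16 to 0.42), and against T0 controls none was called by edgeR, with 1 at an unadjusted p under 0.05, GLN1.2.

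For Msu the comparison with the RW controls called 7 members beside 62.3% of all genes, but all 3 controls hold Mmo genes, so these calls set rewatered Msu against libraries of doubtful label. Of the 7, GS2 and GLN1.5 were lost on leaving out single libraries (adjusted p up to 0.15 and 0.051). Against T0 controls 3 were called beside 28.1%: GLN1.2 at 427–469.9 against 855.2–897 CPM (log2 fold change −0.98 ± 0.08, adjusted p = 0.00013), GLN1.3 at 55.6–60.7 against 75.3–83.5 CPM (−0.48 ± 0.08, adjusted p = 0.0035) and GLT1 at 321–382 against 175–254 CPM (0.63 ± 0.13, adjusted p = 0.0085). Against T1 controls 1 was called beside 15.1%, GLN1.4 at 219–570.0 against 22.3–80.9 CPM (3.06 ± 0.50, adjusted p = 0.0066). None of these was called with near-identical libraries counted once (adjusted p = 0.24, 0.46 and 0.40 against T0, and 0.080 for GLN1.4 against T1). Compared with T2 drought as labelled 1 was called beside 25.2%, GLN1.2 (−0.80 ± 0.16, adjusted p = 0.0091). With S2s and S4s alone as the droughted plants 5 were called beside 43.7%, with GLN1.4 higher after rewatering (3.61), GS2 higher (0.46) and GLN1.2, GLN1.5 and GLT1 lower (−0.89, −4.49 and −0.40). Of these GLN1.4 and GLN1.5 were called with near-identical libraries counted once (adjusted p = 0.034 and 0.032). GLN1.4 was thus called as higher after rewatering than under severe drought in Mmo, and in Msu without the doubtful libraries, while 3 of the 4 rewatered Mav plants lay below all droughted ones. As labelled, GLN1.1 was called as lower in Msu without S4s (−0.85, adjusted p = 0.046).

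Rewatered plants of the 3 species differed in 5 members between Mmo and Mav beside 59.3% of all genes, in 3 between Mmo and Msu beside 54%, and in 5 between Mav and Msu beside 58.5%. GLN1.1 was 6.56-fold higher in Mmo than in Mav (adjusted p = 0.0013) and 4.94-fold higher than in Msu (adjusted p = 6.4e-05). GLT1 was 1.73-fold lower in Mmo than in Mav (adjusted p = 0.0013) and 2.80-fold lower than in Msu (adjusted p = 4.0e-05). GLN1.3 at 103–105 CPM in Mav was 1.83-fold higher than the 55.6–60.7 CPM of Msu (adjusted p = 2.0e-05), and it was the member called with near-identical libraries counted once (adjusted p = 0.043) in any of these 3 comparisons. Some calls turned on M25s or A40s. Without M25s GS2 was called as lower in Mmo than in Mav (−0.66) and in Msu (−0.28), with GLN1.3 (−0.68) and GLN1.4 (1.99) also called against Msu. Without A40s GLN1.4 was 6.57 higher in Mmo than in Mav on the log2 scale, against 3.61 ± 1.36 with it (adjusted p = 0.048, and up to 0.096 without 1 of the other libraries), and GLN1.1 (−1.10) and GLN1.4 (−4.97) were called as lower in Mav than in Msu. The GLN1.1 difference between Mmo and Mav was 3.37 without A40s. GLU2 was called as lower in Mav than in Msu without S1s (−0.51).

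These shifts changed which gene supplied most cytosolic GS transcript. GLN1.2 was the highest GS1 gene in 60 of the 78 libraries, and in 53 of the 71 left without the doubtful ones, including all 19 Mav controls. In Mav T2 controls it made up 67.6 to 89.0% of GS1 CPM, and under drought 14.6 to 35.5%, while GLN1.1 went from 6.89–21.6% to 29.8–55.2% and was the highest in 4 of 5 libraries. The summed GS1 level was 1269.5–1594 CPM in those controls and 610.4–949 CPM under drought. In Mmo at T1 the share of GLN1.2 was 51.3–74.1% in controls and 8.79–10.1% under drought, where GLN1.4 led in 3 of 3 libraries with 44.4–53%. GLN1.4 also led in 3 of the 4 rewatered Mmo libraries and in 2 of the 4 rewatered Msu libraries.

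**Figure D4:**
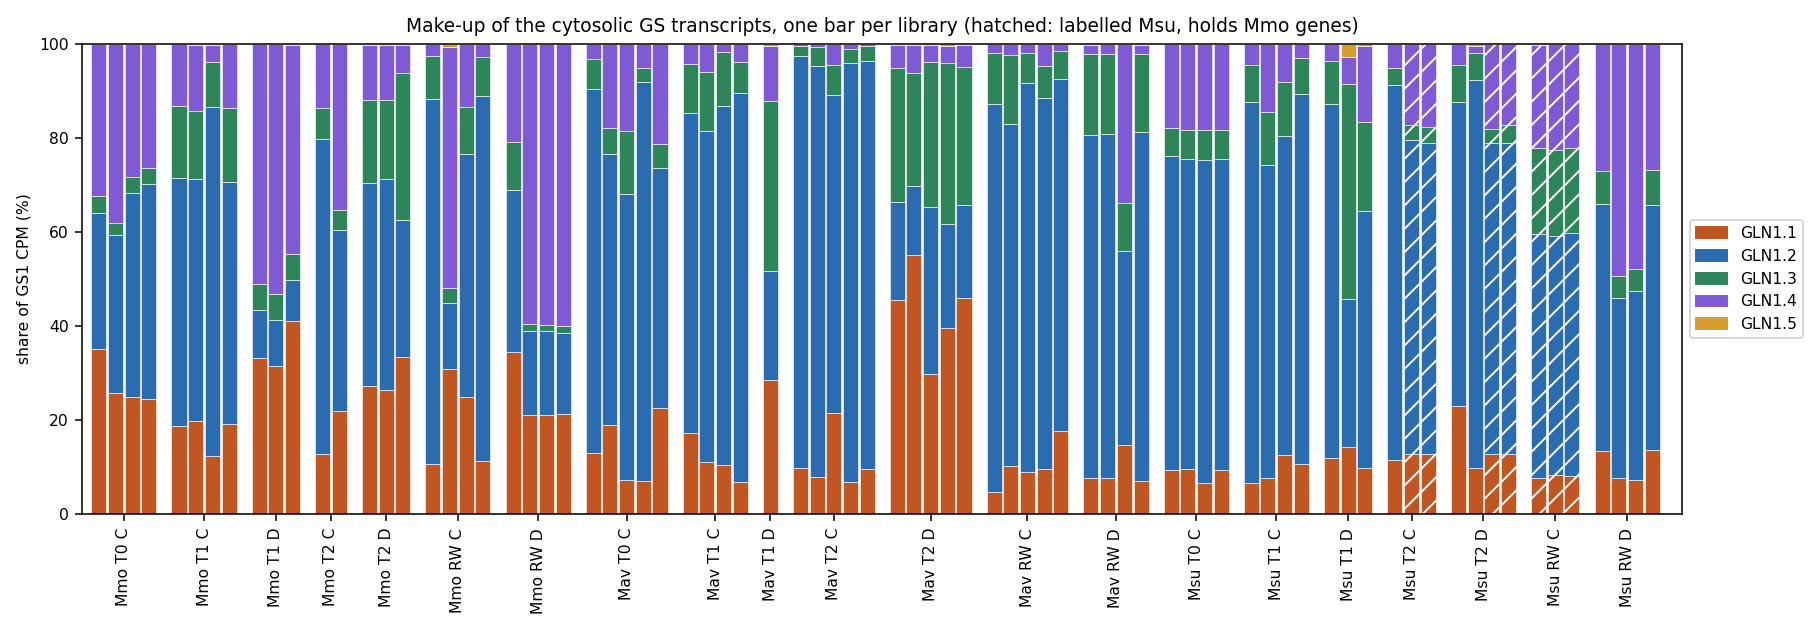
Share of each GS1 gene in the summed GS1 CPM (y axis, %) with one bar per library, by group (x axis), hatched for the 7 libraries labelled Msu that hold Mmo genes. The GLN1.2 share is 67.6–89.0% in Mav T2 controls and 14.6–35.5% in droughted Mav.

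Across the 78 libraries, after each species mean was removed, some members varied together. These correlations of log2 CPM describe libraries that share groups, profiles and depth, and carry no test. GLN1.1 and GLN1.4 had r = 0.68, GLN1.2 and GLU1 r = 0.62, GS2 and GLU1 r = 0.61, and GLN1.2 and GS2 r = 0.58, whereas GLN1.3 ran against GS2 with r = −0.63. Without the 7 doubtful libraries these were 0.69, 0.61, 0.62, 0.57 and −0.64. Among 11041 genes with a mean of 10 CPM or more, those most like GS2 were AT5G36790 (r = 0.87), AT1G11860 (r = 0.86), which encodes the aminomethyltransferase of glycine decarboxylase, and AT5G36700 (r = 0.86), a phosphoglycolate phosphatase. Those most like GLU1 were AT1G62750 (r = 0.94), AT4G37930 (r = 0.86), a mitochondrial serine hydroxymethyltransferase, and AT5G03900 (r = 0.83). The closest to GLN1.2 was AT1G42970 (r = 0.78), to GLN1.4 AT5G49630 (r = 0.79), to GLN1.3 AT1G62710 (r = 0.77), to GLU2 AT3G11910 (r = 0.77), to GLN1.1 AT5G59780 (r = 0.75) and to GLT1 AT5G18610 (r = 0.73). Without the doubtful libraries the genes named for GS2, GLU1, GLN1.3, GLU2 and GLT1 were again among the 5 most alike with r of 0.76 or more, and those named for GLN1.2, GLN1.4 and GLN1.1 ranked 4, 2 and 3.

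**Figure D5:**
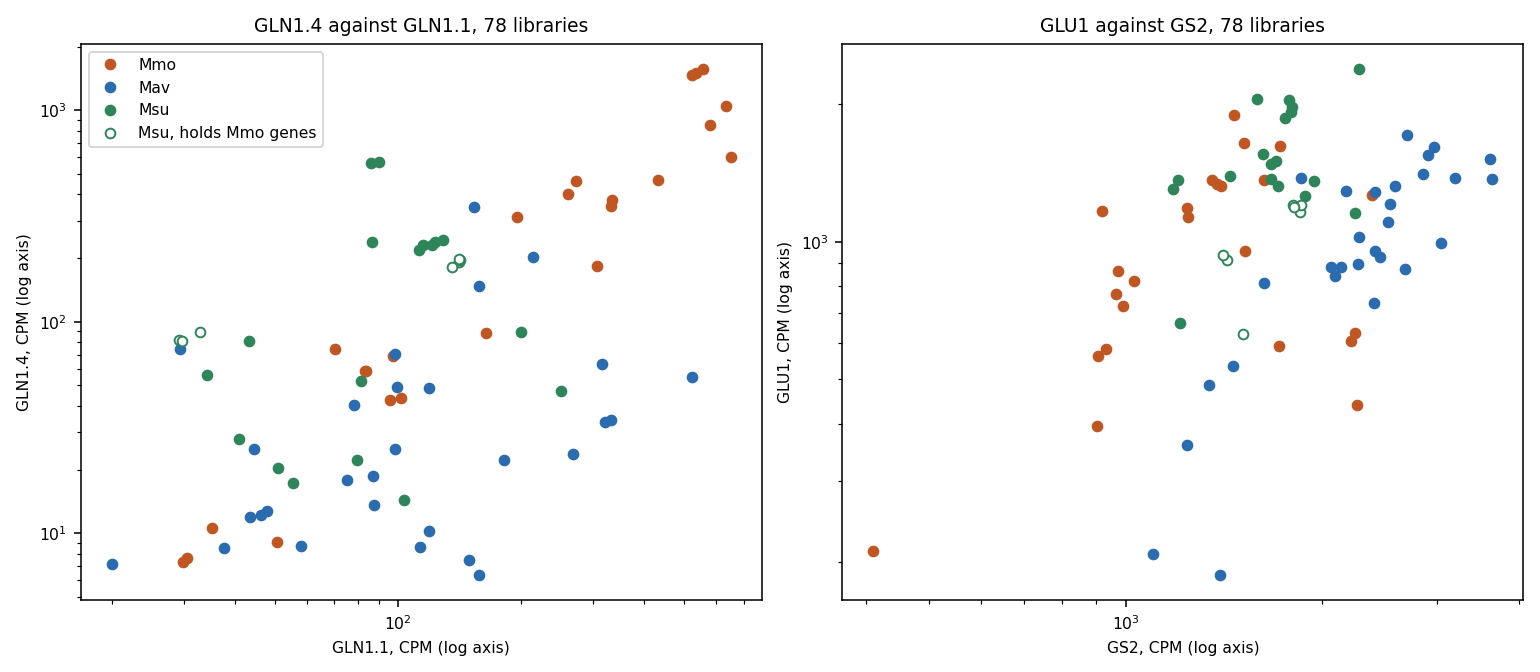
GLN1.4 against GLN1.1 and GLU1 against GS2 in the 78 libraries (points, CPM on log axes, coloured by species, open where a library labelled Msu holds Mmo genes). GLN1.1 and GLN1.4 have r = 0.68 and GS2 and GLU1 r = 0.61 on the log2 scale after the species means were removed.

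Genes around the GS/GOGAT cycle were followed as lists chosen by function. In Mav at T2, where 42% of all genes were called and the median over all genes was −0.01 on the log2 scale, 3 of 3 genes of nitrate reduction were lower: the nitrate reductases NIA1 (−3.10 ± 0.84, adjusted p = 0.011) and NIA2 (−3.12 ± 1.04, adjusted p = 0.031), and the nitrite reductase NIR1 (−1.87 ± 0.30, adjusted p = 0.00046). Of 5 genes of glycine decarboxylase and the serine hydroxymethyltransferase SHM1, 4 were lower, with GLDT at −2.39, SHM1 at −2.01, GLDH1 at −1.99 and GLDP1 at −1.20. The 3 plastid dicarboxylate translocators, which exchange 2-oxoglutarate and glutamate for the cycle, were lower as well, with DiT1 at −1.72. Both genes of the PII sensing pair were lower (GLB1 −1.42, NAGK −2.08), as were the asparagine synthetases ASN2 (−3.36) and ASN3 (−2.54). Of the glutamate dehydrogenases GDH2 was higher (1.76 ± 0.25, adjusted p = 0.00023) and GDH1 and GDH3 were lower (−1.26 and −2.01). None of the 4 ammonium transporters tested and neither leaf ferredoxin was called by edgeR.

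In Mmo at T1, where 31.7% of all genes were called, the lists split otherwise. NIA1 (−1.86) and NIA2 (−1.43) were lower and NIR1 was not called (−1.31, adjusted p = 0.14). Of the ammonium transporters tested, AMT1.1 (1.53), AMT1.3 (1.62) and AMT1.4 (3.16) were higher. ASN2 (−2.75) was lower and GDH2 (0.56) higher. Of the 5 genes of glycine decarboxylase and SHM1, GLDP1 was called, as higher (0.83 ± 0.22, adjusted p = 0.024). At T2 in Mmo, where 4.60% of all genes were called, GDH2 was higher (3.66 ± 0.49, adjusted p = 0.023) and ASN2 (−1.60) and AMT1.2 (−2.34) were lower. Lower ASN2 and higher GDH2 were thus called in all 3 of these drought contrasts, but their lists did not move as a whole. ASN1 was called in none of them, at −0.45 in Mav at T2, −2.04 in Mmo at T1 and 4.32 in Mmo at T2. In the last, the summed asparagine synthetase level was 142–531 CPM under drought against 33.4–61.7 CPM in controls. GDH1 and GDH3 were called in neither Mmo contrast. Values with near-identical libraries counted once are not given for these list genes. On rewatering of Mav, where 48.5% of all genes were called, ASN1 (3.72), ASN2 (2.59) and ASN3 (1.25) were higher than at T2. GDH2 was lower (−1.04), and 4 of the 5 genes of glycine decarboxylase and SHM1 were higher.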

How the data were processed

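Leaf RNA was sequenced on an Illumina HiSeq2000. According to the study's methods the authors mapped reads with BLAT in protein space to a minimal set of TAIR10 coding sequences and took best-scoring mappings, without regard to ploidy. The deposited estimated counts, which are whole numbers here, and the deposited TPM cover 33602 features. The pipeline's versions are not given in the sources used here. No genome or annotation was used here, so no sequence or coding length is shown.

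The 9 members and all gene lists were chosen with earlier results of these data known. Groups came from the sample labels and lanes from the file names. The controls of different species at a sampling point never shared a lane. All rewatered Mmo libraries were in lane 7, and their RW controls and the droughted Mmo libraries of T2 were all in lane 6. Lane therefore cannot be told apart from species among controls or from rewatering in Mmo. Counts were tested as deposited with edgeR 4.0.16 (R 4.3.3): filterByExpr, TMM, quasi-likelihood F test of the groups compared, Benjamini-Hochberg over all genes tested, called at an adjusted p under 0.05. SE is the log2 fold change over the root of F. The share of all genes called by DESeq2 is not given, nor that at an unadjusted p under 0.05 with other control groups. It is also not given where a library was left out or near-identical libraries were counted once. Counts of members there cannot be set against all genes. The labels name each library as a biological replicate, but do not say whether near-identical libraries came from separate plants. The p-values measure the spread between these libraries. Library totals ran from 22346621 to 41675513, which limits counting precision most for GLN1.5. Near-identical libraries (ratio under 4 over genes with 20 or more counts) were summed in an alternative. Other alternatives were DESeq2 1.42.0, limma 3.58.1 on log2(TPM + 0.1) or log2(TPM + 1), RLE size factors, no filter, other control groups, a fit over all 78 libraries, leaving out lane 7 or single libraries, the study's added limit of an absolute log2 fold change over 1, and a plant block. Leaving out the 7 doubtful libraries, also from the correlations, and summing near-identical libraries against other control groups were added after seeing the data. The count tests were tested on simulated data. The named members are all 9, with the 3 genes of highest correlation for each one with a mean of 10 CPM or more.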

Additional observations from a re-analysis of the deposited data

Results flagged for a closer look

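In groups of 4 to 10 libraries, 20 of 126 combinations of gene and group (15.9%) held a library whose gap to its nearest neighbour exceeded the 95% critical value of Dixon's test, where chance gives about 1 in 20. In several of these groups the other libraries were near-identical to each other, and the part of this in the count was not tested.

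One library, M25s among the rewatered Mmo plants, stood apart in 7 genes: GLN1.1 (307 CPM), GLN1.2 (308), GLN1.4 (184) and GLT1 (97.5) were lowest there, as was GLU2 (32.6), and GLN1.3 (90.9) and GS2 (2385) were highest. The other 3 plants of the group share a profile. A40s among rewatered Mav plants was highest in GLN1.1 (153 CPM) and GLN1.4 (351), where the other 3 also share a profile. M6c among Mmo T1 controls was lowest in GLN1.3 (26.7 CPM) and highest in GS2 (2261), and M5c highest in GLN1.5 (1.02). M22c among Mmo RW controls was highest in GLN1.4 (1045 CPM) and GLN1.5 (12.0). A22c among Mav T2 controls was highest in GLN1.4 (63.02 CPM) and lowest in GLT1 (93.7), A37s among droughted Mav plants highest in GLN1.2 (217), and A6c among Mav RW controls highest in GLN1.4 (49.1). Among Msu libraries GLU2 was lowest in the T0 control S42 (31.1 CPM) and highest in the droughted S2s (73.02).

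Differences between species in the drought response passed the test for 3 members. On the log2 scale the T1 response of GLN1.1 was 2.49 and that of GLN1.4 3.74 higher in Mmo than in Msu, and the T2 response of GLN1.2 was −2.61 in Mav less that in Msu. The Msu libraries of the last comparison include 4 that carry the Mmo genes of the species check (S33c, S36c, S5s and S8s), and without the doubtful libraries no member was called.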

How the results depend on the processing

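The counts of members called were recomputed under 670 alternatives, of which 481 stayed within 1.5 times the main count and 189 did not. Of 5299 log2 fold changes of single members, 4865 kept their direction and side of the threshold, 156 gained and 252 lost a call, and 26 reversed. The cause of these changes was not tested. Main counts are in parentheses. Apart from the shares given above, the share of all genes called under an alternative is not given, and these counts cannot be set against it.

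DESeq2 called 4 (2) members between Mav and Msu T0 controls, 1 (0) between Mmo and Mav RW controls, 1 (0) for T1 drought in Msu, 2 (0) for T2 drought in Mmo, 1 (0) each for rewatered Mmo and Mav over controls, 3 (1) for rewatered over droughted Msu, 2 (0), 1 (0), 2 (0), 2 (0) and 6 (3) for controls of Mmo T2, Mav T1, Mav T2, Mav RW and Msu T1 over T0, and 2 (0), 1 (0) and 3 (1) for the differences in response of Mmo and Mav at T2 and RW and of Mav and Msu at T2. With T0 controls as reference there were 3 (5) for T1 drought in Mmo, 3 (0) in Msu, 3 (0) for T2 drought in Mmo, 2 (0) for rewatered Mav and 3 (7) for rewatered Msu. With T1 controls there were 1 (0) for T2 drought in Msu, 4 (0) for rewatered Mmo, 3 (0) for rewatered Mav and 1 (7) for rewatered Msu. Without the 7 libraries labelled Msu that hold the Mmo genes of the species check (the doubtful libraries, an alternative chosen after seeing the data) T2 drought in Msu gave 3 (0) against T0 and 2 (0) against T1 controls, rewatered over droughted Msu 5 (1), and the difference of Mav and Msu at T2 0 (1). With near-identical libraries summed as well (also chosen after seeing the data), T0 controls gave 1 (5) for T1 drought in Mmo, 1 (0) for T2 drought in Msu without the doubtful libraries, 1 (0) for rewatered Mav and 0 (7) for rewatered Msu, T1 controls 0 (7) for rewatered Msu, and rewatered over droughted Msu without the doubtful libraries gave 2 (1).

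With an absolute log2 fold change over 1 also required there were 2 (4) between Mmo and Msu and 1 (2) between Mav and Msu at T0, 1 (2) between Mav and Msu at T1, 2 (4) between Mmo and Mav at T2 among controls, 3 (5) and 1 (5) between Mmo and Mav and between Mav and Msu after rewatering, 3 (5) for T1 drought in Mmo, 4 (7) for rewatered Msu over controls, 5 (8) and 0 (1) for rewatered over droughted Mav and Msu, and 1 (3) for Msu T1 over T0. With an adjusted p under 0.01 as well there were 2 and 0 for those T0 pairs, 1 (3), 2 (4) and 1 (2) for the 3 pairs at T1, 1 (4) for T2 controls, 2 (4) for droughted T2, 1 and 1 after rewatering, 3 (5) for T1 drought in Mmo, 4 (7) for rewatered Msu, 2 (4), 5 (8) and 0 (1) for rewatered over droughted Mmo, Mav and Msu, 1 (3) for Mmo T2 over T1 drought, 0 (1) for Mmo RW and 1 (3) for Msu T1 over T0, and 0 (2) for the difference of Mmo and Msu at T1.

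The test by limma gave, with either pseudocount, 4 (2) between Mav and Msu at T0, 2 (4) between Mmo and Msu at T1, 3 (5) between rewatered Mav and Msu, 1 (0) and 4 (7) for rewatered Mav and Msu over controls, 0 (1) for Mmo RW over T0, 2 (0) and 1 (0) for Mav T2 and RW over T0, 1 (0) for the difference of Mmo and Mav at T2, and with a pseudocount of 1 also 2 (1) for that of Mav and Msu. With near-identical libraries summed, which leaves fewer libraries, there were 1 (4) and 0 (2) between Msu and Mmo or Mav at T0, 2 (4) between Mmo and Msu at T1, 2 (0) between Mmo and Mav RW controls, 2 (4) for droughted T2, 0 (5), 0 (3) and 1 (5) for the 3 rewatered pairs, 1 (5) for T1 drought in Mmo, 4 (7) for rewatered Msu, 0 (4), 3 (8) and 0 (1) for rewatered over droughted Mmo, Mav and Msu, 0 (3) for Mmo T2 over T1 drought, 0 (1) and 0 (3) for Mmo RW and Msu T1 over T0, and 1 (2) and 0 (1) for the differences of Msu from Mmo and Mav. The fit over all libraries gave 1 (4) and 1 (2) for those T0 pairs, 2 (4) and 1 (2) for Mmo and Mav against Msu at T1, 6 (0) between Mmo and Mav RW controls, 3 (5) and 3 (5) for rewatered Mav against Mmo and Msu, 3 (5) and 2 (0) for T1 drought in Mmo and Msu, 1 (0) for T2 drought in Mmo, 1 (0) and 3 (7) for rewatered Mav and Msu, 1 (0), 1 (0) and 0 (3) for Mav T2, Mav RW and Msu T1 over T0, and 0 (2) and 3 (1) for the differences of Msu. Without a filter there were 2 (4) and 1 (2) for Mmo and Mav against Msu at T1 and 0 (1) for Mmo RW. Without lane 7 there were 1 (0) for Mav T2 over T0, and 2 (0) and 2 (1) for the differences of Mav from Mmo and Msu at T2. RLE size factors moved no count past 1.5 times.

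Leaving out 1 library gave 2 to 3 members between Mmo and Mav, 2 to 5 between Mmo and Msu and 1 to 4 between Mav and Msu at T0, 2 to 5, 2 to 5 and 1 to 2 at T1, 1 to 4 at T2 and 0 to 2 at RW among controls, 3 to 5 for droughted T2, and 4 to 6, 3 to 6 and 5 to 7 after rewatering. Drought at T1 gave 3 to 7 in Mmo and 0 to 2 in Msu, at T2 0 to 2 in Mmo, 5 to 8 in Mav and 0 to 0 in Msu, rewatering over controls 0 to 1, 0 to 1 and 5 to 7 in Mmo, Mav and Msu, rewatering over drought 2 to 5, 8 to 9 and 1 to 2, and T2 over T1 drought in Mmo 2 to 7. Later controls over T0 gave 3 to 5, 0 to 0 and 0 to 3 in Mmo, 0 to 0, 0 to 1 and 0 to 1 in Mav and 2 to 6 in Msu, and the differences in response 0 to 2, 0 to 1, 1 to 3 and 1 to 2.

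Log2 fold changes reversed with T0 controls for GLN1.1 (−0.58), GLN1.4 (−0.33) and GLU1 (−0.91) in Mmo at T1, GLN1.4 in Mav at T2 (−1.60), GLT1 in rewatered Mav (0.98) and GLN1.1 (−0.20) and GLN1.2 (−0.98) in rewatered Msu, and with T1 controls for GLN1.1 in Msu at T2 (1.41, and 1.56 without the doubtful libraries), GLT1 in rewatered Mav (0.75) and GLN1.2 (−0.12), GS2 (−0.037) and GLU1 (−0.028) in rewatered Msu. With near-identical libraries summed these were −0.60, −0.46 and −0.76 in Mmo at T1, −1.597 for GLN1.4 in Mav, and in rewatered Msu −0.086 and −1.003 for GLN1.1 and GLN1.2 and −0.049 for GS2 against T0 and −0.117, −0.031 and −0.018 for GLN1.2, GS2 and GLU1 against T1. GLN1.4 in rewatered over droughted Mav reversed without A40s (−1.45, and up to 1.88 without another library), GS2 in Mmo T2 over T1 drought without M20s (0.35, and down to −0.24) and GLT1 in rewatered over droughted Msu without the doubtful libraries (−0.40).

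S2s and S4s carry the same plant label at T2 and RW in Msu. With the plant as a replicate block 1 member was called, as without it, but GLN1.4 (3.70, adjusted p = 0.0045) in place of GLN1.2 (−0.91, adjusted p = 0.081). With 2 shared labels these numbers do not show that the libraries are paired. TMM-scaled counts per kilobase of coding sequence were not run, because no coding length was used here. Depth limits GLN1.5, with 2 to 510 reads per library.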

Other observations

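Libraries of different sampling points shared levels of several members. The Mmo controls M6c (T1), M21c and M24c (RW) had GS2 at 2261, 2243 and 2215 CPM, GLN1.1 at 35.2, 29.8 and 30.5 CPM and GLN1.4 at 10.6, 7.29 and 7.61 CPM, while the other Mmo controls of these points were at 904 to 1032 CPM in GS2, 83.1 to 633 CPM in GLN1.1 and 58.2 to 1045 CPM in GLN1.4. GLN1.4 exceeded 1000 CPM in 4 libraries, all Mmo at RW: the control M22c and the rewatered M26s, M27s and M28s.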
